A study of Mus musculus with 12 samples.

Results

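The 10 genes described here belong to the positive acute phase response and were followed in mouse hepatocytes that had lost the Hippo pathway effectors YAP and TAZ and had been injured with carbon tetrachloride. They are the serum amyloid A genes Saa1, Saa2, Saa3 and Saa4, the siderophore-binding protein gene Lcn2, the orosomucoid genes Orm1, Orm2 and Orm3, and Hp and Hpx, which encode haptoglobin and hemopexin. They were chosen by name as 10 rows of the deposited count table, which holds 37141 gene rows. All 10 passed the filter on low counts that left 10780 genes for testing. At 48 h after carbon tetrachloride, 8 of the 10 were higher than without injury and 2 were lower in Yap/Taz KO hepatocytes. Of all tested genes 17.8% passed in that comparison, in either direction. In control hepatocytes 7 were higher, 2 were lower and 1 did not pass the test, beside 22.5% of all tested genes that passed. Saa1, Saa2 and Lcn2 rose by at least 18.6 times in both genotypes, while Saa4 and Orm3 fell in both. The call of Saa4 in Yap/Taz KO and that of Orm3 in controls were lost under some alternatives. None of the 10 passed the test between Yap/Taz KO and ctrl, with or without injury, and neither did any other tested gene in the main fit.

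All mice carried floxed alleles of Yap and of Taz (gene symbols Yap1 and Wwtr1), and each of the 4 groups holds 3 libraries. The Yap/Taz KO + CCl4 group received 5e11 genome copies of an AAV8 vector that expresses Cre recombinase from the TBG promoter, which is active in hepatocytes, and 3 weeks later 1 ml/kg carbon tetrachloride (CCl4) in corn oil. CCl4 is a hepatotoxin that cytochrome P450 enzymes of the hepatocyte activate. The ctrl + CCl4 group received the same dose of CCl4 without the Cre vector, so its floxed alleles were intact and its effective genotype is given as WT. Both injured groups were collected at 48 h. The Yap/Taz KO group was collected at 3 weeks after the vector without injury, and the ctrl group received neither. The sources used here name no control vector for the mice without Cre and no corn oil injection for the uninjured mice, so each difference includes any effect of the vector or of the injection. They do not say whether each library came from its own animal, and the spread behind the p-values may therefore be technical.

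Hepatocytes were sorted by flow cytometry from perfused livers, with 500000 sorted cells per library. Library totals ran from 1617761 to 3028951 counts, and the alternatives below include scaling by these totals. Values are CPM, the usual per-library scale for counts, on library sizes adjusted by TMM (trimmed mean of M values), and differences are log2 fold changes from edgeR's quasi-likelihood test, adjusted by Benjamini-Hochberg over all 10780 genes with a threshold of 0.05. The library method reads each transcript once, near its 3' end, so CPM are not divided by length. In bulk samples a smaller share of cells of one type and less RNA per cell cannot be told apart. Yap1 averaged 14.5 ± 0.313 CPM in Yap/Taz KO + CCl4, 56.6 ± 8.02 CPM in ctrl + CCl4, 15.6 ± 6.30 CPM in Yap/Taz KO and 58.0 ± 16.1 CPM in ctrl (SD, n = 3 each). Wwtr1 averaged 23.3 ± 2.97, 33.7 ± 1.08, 14.7 ± 4.18 and 38.9 ± 17.1 CPM in the same order of groups. A 3' tag reports the abundance of the transcript and not the deleted exons.

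The summed hepatocyte markers (12 genes, Alb and Ttr the most abundant) were 72830 to 90230 CPM in Yap/Taz KO + CCl4, 49650 to 67250 CPM in ctrl + CCl4, 123400 to 155900 CPM in Yap/Taz KO and 106700 to 149000 CPM in ctrl. Markers of macrophages and Kupffer cells (12 genes, Lyz2 and Cd5l the most abundant) summed to 2019 to 3050 CPM in Yap/Taz KO + CCl4, 2502 to 4388 CPM in ctrl + CCl4, 239 to 1151 CPM in Yap/Taz KO and 516 to 2795 CPM in ctrl. Markers of other cells were thus counted in the sorted samples, and the macrophage sum of both injured groups exceeded that of every uninjured library except ctrl replicate 1. That library stood apart, with 1583 CPM of erythroid markers against 19.6 to 154 CPM in all other libraries, and with the highest uninjured macrophage sum. The count of the 10 genes that passed was the same without it, with 7 higher and 2 lower in control hepatocytes.

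Acute phase proteins are plasma proteins whose production by the liver changes within hours to days of infection, trauma or tissue damage. Macrophages and other cells release interleukin 6, interleukin 1 and tumour necrosis factor, and hepatocytes respond through the transcription factors STAT3, NF-kB and the C/EBP family. Positive acute phase proteins go up and include carriers, protease inhibitors, iron- and heme-binding proteins and apolipoproteins, while negative ones such as albumin and transthyretin go down. In the mouse, serum amyloid A is the classic major acute phase protein, whereas C-reactive protein, which has that role in humans, responds weakly.

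Promoter sequence is shown for the genes whose data turn on a contrast within a family: Saa1 and Saa2, which moved together, beside Saa4, which moved the other way; Orm2 beside Orm3, which moved in opposite directions; and Lcn2, which had the smallest p of the 10. Each line gives the 250 bases before the RefSeq transcript start on the gene's own strand (RefSeq, GRCm38.p6), 5′ to 3′, with capitals marking each match to the C/EBP-type letters TTGCNNAA on either strand. The windows are chr7:46742981-46743230 (minus strand) for Saa1, chr7:46751583-46751832 (plus) for Saa2, chr7:46732604-46732853 (minus) for Saa4, chr2:32387740-32387989 (minus) for Lcn2, chr4:63362199-63362448 (plus) for Orm2 and chr4:63355908-63356157 (plus) for Orm3.
Saa1: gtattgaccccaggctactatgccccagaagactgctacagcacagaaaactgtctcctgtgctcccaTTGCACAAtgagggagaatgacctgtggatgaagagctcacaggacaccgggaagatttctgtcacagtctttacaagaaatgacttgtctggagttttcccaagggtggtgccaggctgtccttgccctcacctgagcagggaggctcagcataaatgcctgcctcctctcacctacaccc
Saa2: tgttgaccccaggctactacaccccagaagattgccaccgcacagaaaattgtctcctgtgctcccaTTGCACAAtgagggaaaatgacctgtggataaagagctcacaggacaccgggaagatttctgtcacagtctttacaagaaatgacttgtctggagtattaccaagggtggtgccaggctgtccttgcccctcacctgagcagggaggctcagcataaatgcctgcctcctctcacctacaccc
Saa4: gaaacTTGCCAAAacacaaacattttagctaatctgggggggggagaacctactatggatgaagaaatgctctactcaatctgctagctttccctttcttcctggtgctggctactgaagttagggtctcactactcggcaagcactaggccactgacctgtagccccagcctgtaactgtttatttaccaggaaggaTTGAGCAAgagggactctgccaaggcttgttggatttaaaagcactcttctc
Lcn2: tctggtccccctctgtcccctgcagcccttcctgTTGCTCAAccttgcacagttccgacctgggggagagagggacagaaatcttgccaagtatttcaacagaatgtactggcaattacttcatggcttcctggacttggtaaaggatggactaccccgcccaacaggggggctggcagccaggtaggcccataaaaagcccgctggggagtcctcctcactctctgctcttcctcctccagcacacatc
Orm2: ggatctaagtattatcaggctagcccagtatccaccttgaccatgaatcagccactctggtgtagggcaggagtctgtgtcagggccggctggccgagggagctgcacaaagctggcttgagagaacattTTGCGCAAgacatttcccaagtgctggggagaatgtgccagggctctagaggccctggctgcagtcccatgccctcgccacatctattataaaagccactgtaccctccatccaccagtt
Orm3: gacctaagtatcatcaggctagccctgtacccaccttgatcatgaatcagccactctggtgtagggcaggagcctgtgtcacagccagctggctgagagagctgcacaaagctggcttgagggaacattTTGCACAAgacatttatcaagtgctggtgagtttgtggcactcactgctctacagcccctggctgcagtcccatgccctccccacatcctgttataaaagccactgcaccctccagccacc

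RefSeq promoter windows were matched for 8 of the 10 genes, and Orm1 and Hp had no entry. All 8 windows held the letters TTGCNNAA, which 9.56% of 32851 RefSeq mouse promoter windows of the same length hold. The NF-kB-type letters (GGG and CC with any 5 bases between them) were in the windows of Saa1, Saa2, Saa4 and Lcn2, and in 45.8% of all windows. AP-1-type letters (TGANTCA) were in those of Orm2 and Orm3, against 6.75% of all windows. The STAT-type letters TTCNNNGAA and the TEAD-type letters GGAATG were in none of the 8 windows, and in 7.02% and 12.6% of all windows. TEAD proteins are the DNA-binding partners of YAP and TAZ. These letters were chosen after the sequences had been seen, each was searched on both strands, no match overlapped a match of another motif, and a match is a description of the sequence and not a binding site. The windows of Saa1 and Saa2 were identical at 95.2% of aligned bases and those of Orm2 and Orm3 at 87.6%. The C/EBP-type letters began 182 bases before the start in Saa1 and 183 in Saa2, and 120 in Orm2 and 121 in Orm3. Orm2 and Orm3, which moved in opposite directions after injury, held C/EBP-type and AP-1-type letters at nearly the same places.

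**Figure D1:**
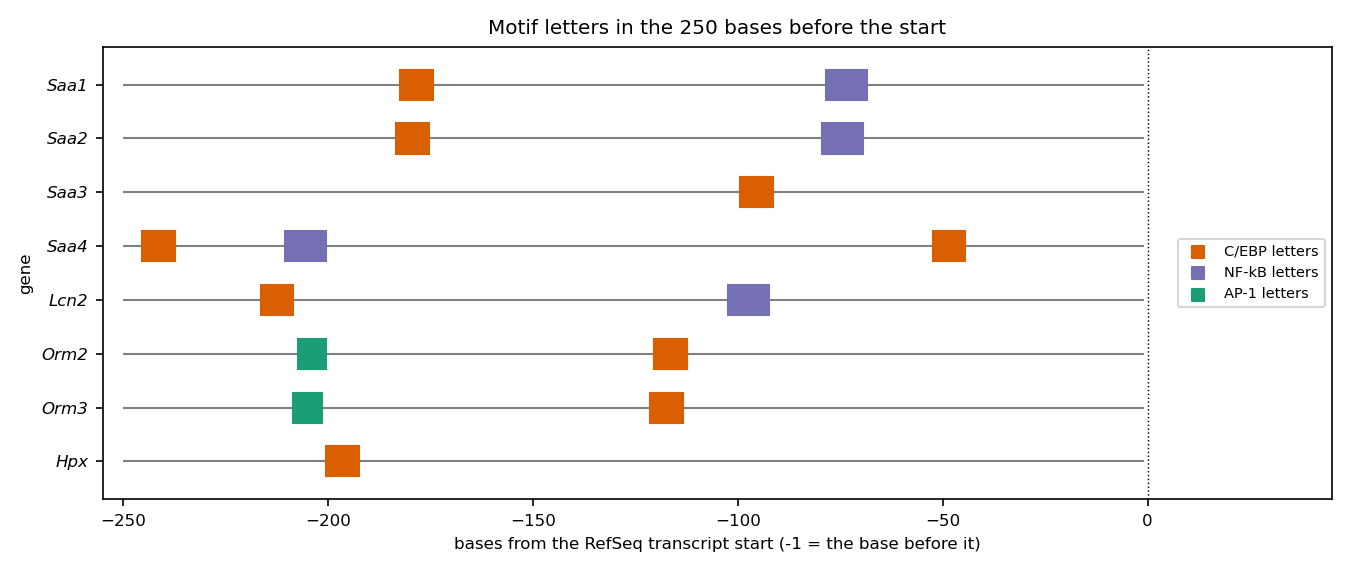
Positions of C/EBP-type, NF-kB-type and AP-1-type letters (coloured boxes) in the 250 bases before the RefSeq start of 8 genes; the horizontal axis gives bases from the start. C/EBP-type boxes stand in all 8 windows, and the boxes of Saa1 and Saa2, and of Orm2 and Orm3, lie 1 base apart.

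The injury response was measured first within Yap/Taz KO hepatocytes, as Yap/Taz KO + CCl4 over Yap/Taz KO. All 10 genes passed, 8 higher and 2 lower, where 9.42% of all tested genes were higher and 8.35% lower (17.8% in either direction). The groups of 3 libraries did not overlap for any of the 10, against 39.4% of all tested genes. The median log2 fold change of the 10 was 2.64, and that of all tested genes was 0.03. In control hepatocytes (ctrl + CCl4 over ctrl) 9 of the 10 passed, 7 higher and 2 lower, where 10.5% of all tested genes were higher and 12% lower (22.5% in either direction). There the groups did not overlap for 8 of the 10, against 36.7% of all tested genes. The median of the 10 was 2.27, beside 0.03 for all tested genes. Scaling by library totals, which shifted the median of all genes up by 0.37 in each injury response, left 9 genes called in each genotype: 8 higher and Orm3 lower in Yap/Taz KO, and 8 higher, Orm1 included, and Saa4 lower in controls. Over all tested genes 1814 were then higher and 406 lower in Yap/Taz KO, and 1974 and 698 in controls.

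**Figure D2:**
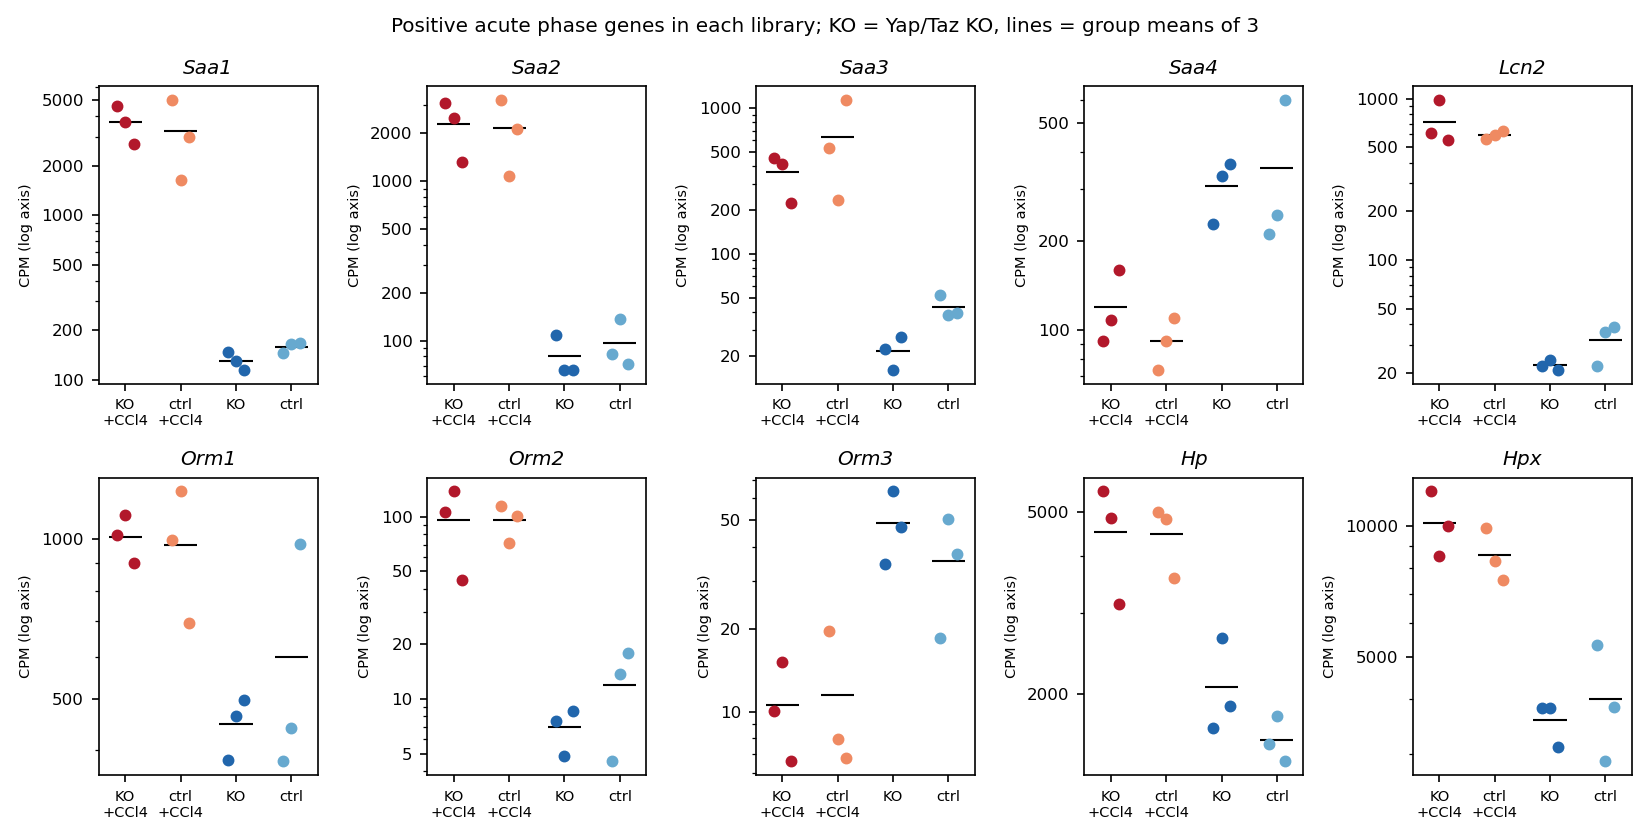
CPM (log axis) of the 10 genes in each of the 12 libraries, by group, with lines at the group means (n = 3); each panel has its own range. The injured groups lie above the uninjured ones in the panels of Saa1, Saa2, Saa3, Lcn2, Orm2, Hp and Hpx, and below them in that of Saa4. For Orm1 both injured groups overlap the ctrl group, and for Orm3 ctrl + CCl4 does.

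Saa1 and Saa2 encode the acute phase serum amyloid A proteins, small apolipoproteins that travel on high-density lipoprotein. They lie on chromosome 7 of GRCm38, Saa1 at chr7:46740497-46742980 on the minus strand and Saa2 at chr7:46751790-46754313 on the plus strand (GENCODE M21). RefSeq lists Saa2 as an older name of Saa1 and Saa1 as an older name of Saa2, so symbols here are those of the deposited table. Saa1 had 4615, 3665 and 2705 CPM in Yap/Taz KO + CCl4 replicates 1 to 3, against 147, 130.3 and 115 CPM in Yap/Taz KO. It had 5039.6, 1636 and 2992 CPM in ctrl + CCl4, against 146, 164 and 166 CPM in ctrl. Every injured library was far above every uninjured one, and within each injury state the genotypes overlapped. The log2 fold change of Saa1 was 4.81 ± 0.37 (SE) in Yap/Taz KO (edgeR adjusted p = 1.67e-06) and 4.34 ± 0.37 in controls (adjusted p = 3.97e-06).

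Saa2 was measured at 3099, 2486 and 1319 CPM in Yap/Taz KO + CCl4, against 108, 65.6 and 66.0 CPM in Yap/Taz KO. Its levels were 3264, 1087 and 2118 CPM in ctrl + CCl4, against 82.3, 137 and 71.1 CPM in ctrl. As for Saa1, every injured library was far above every uninjured one, and ctrl + CCl4 replicate 2 was the lowest injured library of both genes. Saa2 rose by 4.85 ± 0.46 on the log2 scale in Yap/Taz KO (edgeR adjusted p = 9.19e-06) and by 4.48 ± 0.45 in controls (adjusted p = 1.19e-05). Saa1 made up 59.6 to 67.2% of the counts of both genes in Yap/Taz KO + CCl4, 58.6 to 60.7% in ctrl + CCl4, 57.5 to 66.5% in Yap/Taz KO and 54.5 to 70.1% in ctrl, ranges that overlapped between all groups. The last 200 bases of their transcripts are 91.5% identical, with a longest shared run of 39 bases, and the sources used here do not say how reads matching both were counted, so the split between them is uncertain. Their summed counts rose by 4.82 ± 0.40 in Yap/Taz KO (edgeR adjusted p = 2.63e-06) and by 4.40 ± 0.39 in controls (adjusted p = 5.04e-06).

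Saa3 (chr7:46711998-46715700, minus strand) encodes an inducible serum amyloid A that in mice is made in macrophages and fat as well as in liver. Its levels were 456, 411 and 225 CPM in Yap/Taz KO + CCl4, against 22.2, 15.9 and 26.8 CPM in Yap/Taz KO. In ctrl + CCl4 it had 529, 233 and 1145 CPM, against 51.8, 37.7 and 39.1 CPM in ctrl. All injured libraries were above all uninjured ones, and the highest, ctrl + CCl4 replicate 3, was 4.91 times the lowest of its own group. Saa3 rose by 4.07 ± 0.49 in Yap/Taz KO (edgeR adjusted p = 7.54e-05) and by 3.88 ± 0.48 in controls (adjusted p = 5.82e-05). Without ctrl + CCl4 replicate 3 the rise in controls was 3.16 (edgeR adjusted p = 0.000155). That library also had the highest macrophage marker sum, at 4388 CPM against 3331 and 2502 CPM in the other libraries of its group, and the part of other cells in the Saa3 values was not tested. Saa3 was 18.0% of the serum amyloid A counts there and 5.94 and 7.65% in the other libraries of the group.

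Saa4 (chr7:46727998-46732603, minus strand) encodes the serum amyloid A that is known as constitutive, because it is present in plasma without inflammation. Levels were 91.5, 108 and 159.5 CPM in Yap/Taz KO + CCl4, against 229, 331 and 364 CPM in Yap/Taz KO. They were 73.3, 91.5 and 110.2 CPM in ctrl + CCl4, against 211, 245 and 601 CPM in ctrl. Saa4 therefore ran against its neighbours on chromosome 7, with every injured library below every uninjured one. It fell by 1.36 ± 0.36 on the log2 scale in Yap/Taz KO (edgeR adjusted p = 0.0170) and by 1.94 ± 0.37 in controls (adjusted p = 0.00164). In Yap/Taz KO the call was lost when libraries were scaled by their totals (-0.99, edgeR adjusted p = 0.0645) and when any 1 of 4 libraries was left out (Yap/Taz KO + CCl4 replicates 1 and 2 and Yap/Taz KO replicates 2 and 3, adjusted p 0.0523 to 0.0789). Without ctrl replicate 3, the highest library, the difference in controls was -1.31 (edgeR adjusted p = 0.00627).

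The makeup of the serum amyloid A family changed accordingly. Saa4 held 1.11 to 3.62% of the family's counts in Yap/Taz KO + CCl4, against 45.2 to 63.7% in Yap/Taz KO. It held 0.823 to 3.00% in ctrl + CCl4, against 42.0 to 68.5% in ctrl. Saa4 was thus the most counted member of the family in all 6 uninjured libraries, and Saa1 in all 6 injured ones.

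**Figure D3:**
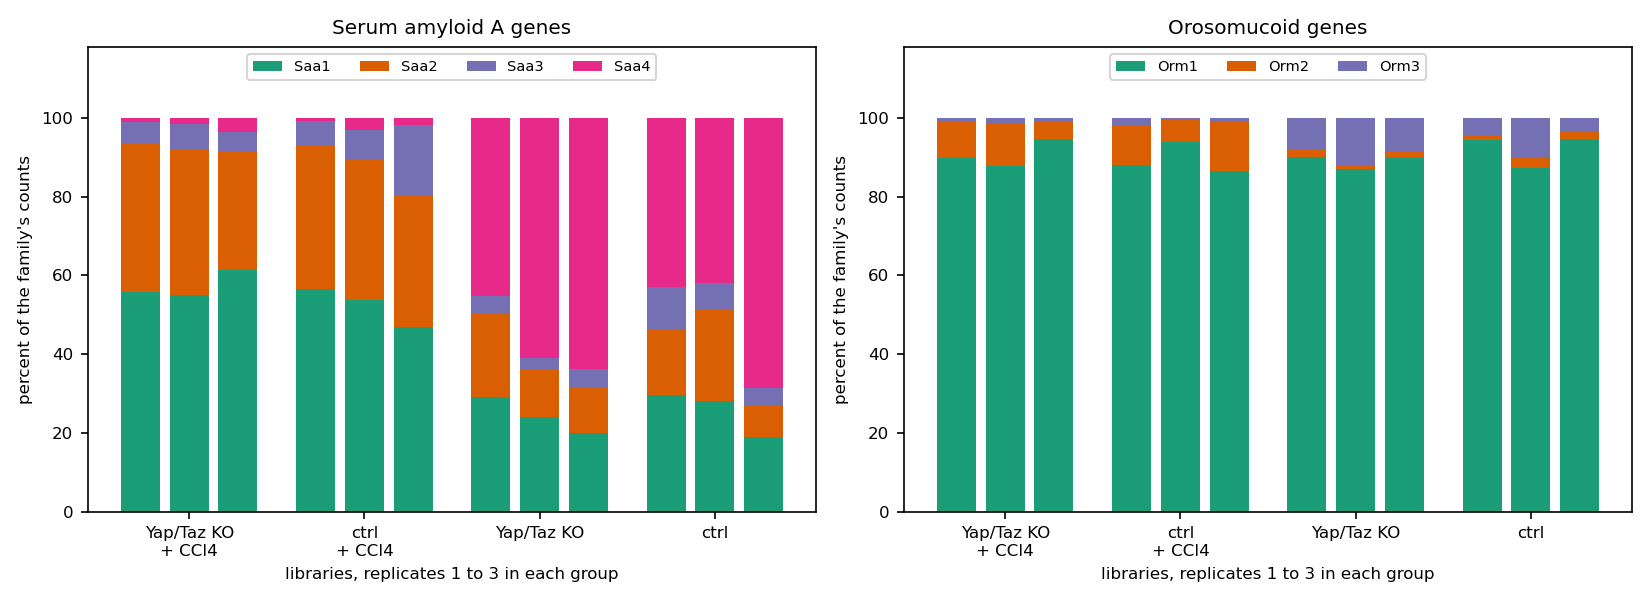
Share of each gene in the counts of the serum amyloid A genes (left) and of the orosomucoid genes (right), in percent, 1 bar per library. Saa4 holds 42.0 to 68.5% of its family in uninjured libraries and at most 3.62% in injured ones, while Orm1 holds at least 86.6% of its family in every library.

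Lcn2 (chr2:32384633-32388252, minus strand) encodes lipocalin 2, which binds bacterial siderophores and so withholds iron, and which hepatocytes and neutrophils make. It had 612, 986 and 555.5 CPM in Yap/Taz KO + CCl4, against 22.2, 24.1 and 20.9 CPM in Yap/Taz KO. In ctrl + CCl4 its levels were 562, 591 and 629 CPM, against 22.2, 35.7 and 38.4 CPM in ctrl. Every injured library was far above every uninjured one, with little spread in ctrl + CCl4 and in Yap/Taz KO. Lcn2 rose by 5.00 ± 0.30 in Yap/Taz KO, the smallest p of all 10780 genes there (edgeR adjusted p = 3.43e-07), and by 4.22 ± 0.28 in controls, where it ranked 6 (adjusted p = 5.20e-07). Markers of monocytes and neutrophils (14 genes, Plac8 and Ccr2 the most abundant) summed to 160.1 to 228 CPM in Yap/Taz KO + CCl4, 176 to 308 CPM in ctrl + CCl4, 7.72 to 26.0 CPM in Yap/Taz KO and 24.2 to 138 CPM in ctrl. Of these markers 7 were tested, and 7 rose in Yap/Taz KO (median 3.57) and 4 in controls (median 2.63), the neutrophil gene Retnlg in both. Of all tested genes 9.42% were higher in Yap/Taz KO and 10.5% in controls. The other 7 markers, among them the neutrophil granule genes Ngp, Camp, Ltf, Mpo and Elane, had 10 to 40 counts each over all 12 libraries. They did not pass the filter on low counts. The tested markers S100a8 and S100a9 had 603 and 424 counts. S100a8 averaged 20.8, 36.48, 1.599 and 9.989 CPM in Yap/Taz KO + CCl4, ctrl + CCl4, Yap/Taz KO and ctrl. S100a9 averaged 13.35, 22.22, 2.475 and 12.19 CPM in the same order of groups. For both, injured and uninjured libraries overlapped in controls and not in Yap/Taz KO. Groups did not overlap for 36.7% of all tested genes in controls and 39.4% in Yap/Taz KO. The monocyte and neutrophil sum of ctrl replicate 1 was 138 CPM, against 24.2 and 33.4 CPM in the other ctrl libraries. Retnlg, the granule genes, S100a8 and S100a9 were named after their values had been seen. The part of monocytes and neutrophils in the Lcn2 values was not tested.

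The orosomucoids, also called alpha-1-acid glycoproteins, are plasma carriers of lipophilic ligands and drugs. Their 3 genes lie side by side on the plus strand of chromosome 4, Orm1 at chr4:63344560-63348163, Orm3 at chr4:63356162-63359511 and Orm2 at chr4:63362449-63365878. Orm1 was by far the most counted, and had 1019, 1111 and 900.3 CPM in Yap/Taz KO + CCl4, against 384, 464 and 498 CPM in Yap/Taz KO. It had 998, 1233 and 696 CPM in ctrl + CCl4, against 381, 440.3 and 979 CPM in ctrl. The injured and uninjured libraries were apart in Yap/Taz KO and overlapped in controls, where ctrl replicate 3 reached the level of injured libraries. Orm1 rose by 1.17 ± 0.32 in Yap/Taz KO (edgeR adjusted p = 0.0191). In controls its log2 fold change was 0.70 ± 0.31 (95% interval -0.02 to 1.43, edgeR adjusted p = 0.130). The intervals use the 8 residual degrees of freedom alone and are wider than the test, which also draws on the spread of other genes. Without ctrl replicate 3 the value in controls was 1.25 (edgeR adjusted p = 0.00480), with library totals 1.08 (0.0153) and without the filter on low counts 0.73 (0.0267). The call in Yap/Taz KO was lost on leaving out uninjured replicate 1, uninjured replicate 2 or injured replicate 2 (edgeR adjusted p 0.0578 to 0.0650).

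Orm2 had 106, 138 and 44.6 CPM in Yap/Taz KO + CCl4, against 7.58, 4.83 and 8.52 CPM in Yap/Taz KO. In ctrl + CCl4 it had 115, 72.0 and 101 CPM, against 4.52, 13.6 and 17.8 CPM in ctrl. Every injured library was above every uninjured one, and Orm2 rose by 3.77 ± 0.49 in Yap/Taz KO (edgeR adjusted p = 0.000118) and by 3.05 ± 0.47 in controls (adjusted p = 0.000307). Orm3 went the other way, with 10.1, 15.2 and 6.59 CPM in Yap/Taz KO + CCl4, against 34.7, 63.7 and 47.3 CPM in Yap/Taz KO. Its levels were 19.8, 7.93 and 6.77 CPM in ctrl + CCl4, against 18.5, 50.3 and 37.7 CPM in ctrl. The groups were apart in Yap/Taz KO, while in controls ctrl + CCl4 replicate 1 lay above ctrl replicate 1. Orm3 fell by 2.19 ± 0.46 in Yap/Taz KO (edgeR adjusted p = 0.00438) and by 1.63 ± 0.46 in controls (adjusted p = 0.0198). The call in controls was lost with library totals (-1.26, edgeR adjusted p = 0.0584) and without ctrl replicate 2 or 3 or ctrl + CCl4 replicate 2 or 3 (adjusted p 0.0502 to 0.1002), and without ctrl + CCl4 replicate 1 the value was -2.25 (0.00717).

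Orm1 held 87.9 to 94.6% of the orosomucoid counts in Yap/Taz KO + CCl4, 86.6 to 93.9% in ctrl + CCl4, 87.1 to 90.1% in Yap/Taz KO and 87.3 to 94.6% in ctrl. The remainder was mostly Orm2 in injured libraries (4.69 to 10.9% in Yap/Taz KO + CCl4 and 5.49 to 12.6% in ctrl + CCl4) and mostly Orm3 in uninjured ones (8.13 to 11.97% in Yap/Taz KO and 3.64 to 9.98% in ctrl). The last 200 bases of the Orm1 and Orm2 transcripts are 97% identical with a shared run of 141 bases, and those of Orm3 are 88.5% identical to Orm1 and 89.5% to Orm2, so the split between these genes by the authors' counting is uncertain. Summed over the 3 genes, the orosomucoid counts rose by 1.15 ± 0.31 in Yap/Taz KO (edgeR adjusted p = 0.0180) and differed by 0.74 ± 0.31 in controls (adjusted p = 0.0987).

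Hp and Hpx encode the plasma scavengers of free hemoglobin and of free heme, haptoglobin (chr8:109575128-109579172, minus strand) and hemopexin (chr7:105591613-105600137, minus strand). Hp had 5542, 4839.6 and 3137 CPM in Yap/Taz KO + CCl4, against 1685, 2649 and 1884 CPM in Yap/Taz KO. In ctrl + CCl4 its levels were 4984, 4806 and 3581 CPM, against 1557, 1787 and 1425 CPM in ctrl. The injured libraries were all above the uninjured ones, though the gap was narrow in Yap/Taz KO, between 3137 and 2649 CPM. Hp rose by 1.12 ± 0.25 in Yap/Taz KO (edgeR adjusted p = 0.00658) and by 1.49 ± 0.25 in controls (adjusted p = 0.000761).

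Hpx was the most counted of the 10 genes in every group. It had 12061, 8561 and 9995 CPM in Yap/Taz KO + CCl4, against 3820.2, 3813 and 3098 CPM in Yap/Taz KO. In ctrl + CCl4 it had 9898, 8339.8 and 7511 CPM, against 5327, 2877 and 3829.8 CPM in ctrl. No injured library overlapped an uninjured one. Hpx rose by 1.51 ± 0.25 in Yap/Taz KO (edgeR adjusted p = 0.000724) and by 1.10 ± 0.24 in controls (adjusted p = 0.00483). The erythroid marker sum was 72.7 to 94.7 CPM in Yap/Taz KO + CCl4, 31.6 to 119 CPM in ctrl + CCl4, 19.8 to 55.8 CPM in Yap/Taz KO and 19.6 to 1583 CPM in ctrl, and its part in the Hp and Hpx values was not tested.

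Hpx and Hp were the highest of the 10 before injury as well as after it. They ranked 33 and 62 of 10780 genes by mean CPM in Yap/Taz KO and 30 and 76 in ctrl, and reached ranks 11 and 19 in Yap/Taz KO + CCl4 and 12 and 18 in ctrl + CCl4. Saa1 stood at rank 27 in Yap/Taz KO + CCl4 and 24 in ctrl + CCl4, against 1161 in Yap/Taz KO and 932 in ctrl. Lcn2 stood at rank 114 in Yap/Taz KO + CCl4 and 124 in ctrl + CCl4, against 4893 in Yap/Taz KO and 3916 in ctrl. Orm3 moved the other way, to rank 7442 in Yap/Taz KO + CCl4 and 7287 in ctrl + CCl4, against 2866 in Yap/Taz KO and 3639 in ctrl. Together the 10 genes took 2.09 to 2.94% of all counts in Yap/Taz KO + CCl4 and 1.96 to 3.02% in ctrl + CCl4, against 0.521 to 0.585% in Yap/Taz KO and 0.543 to 0.741% in ctrl.

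**Figure D4:**
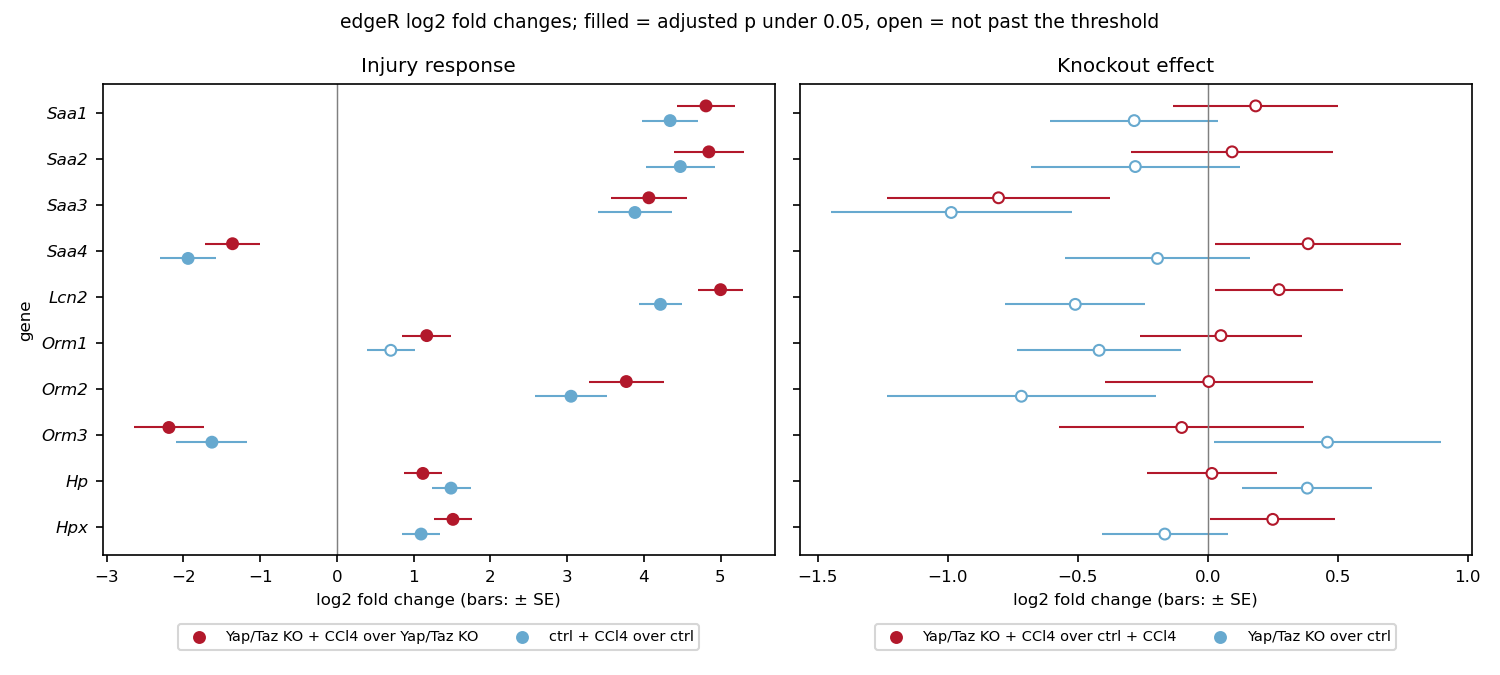
Log2 fold changes ± SE of the 10 genes in both injury responses (left) and both knockout effects (right), from edgeR with 3 libraries per group; filled points passed an adjusted p of 0.05. Injury values run from -2.19 (Orm3) to 5.00 (Lcn2), both in Yap/Taz KO, and all knockout values are open and lie between -0.99 and 0.46.

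The comparison of Yap/Taz KO + CCl4 with ctrl + CCl4 asks whether loss of YAP and TAZ alters the injured state. None of the 10 genes passed (0% of all genes were called by edgeR), and none had an unadjusted p under 0.05, against 5.69% of all tested genes. The targeted gene Yap1 did not pass in edgeR either. Its mean was 14.5 CPM in Yap/Taz KO + CCl4 and 56.6 CPM in ctrl + CCl4. The lack of a call therefore does not show that a gene was unchanged. DESeq2 and limma-voom also called none of the 10, and over all genes DESeq2 called 17 and limma-voom 0. Groups overlapped for all 10, whereas they did not overlap for 16.3% of all tested genes. The median log2 fold change was 0.07. Saa3 had the largest difference, at 364 ± 123 CPM in Yap/Taz KO + CCl4 and 636 ± 465 CPM in ctrl + CCl4 (SD, n = 3 each), a log2 fold change of -0.80 (95% interval -1.79 to 0.18, edgeR adjusted p = 0.956). Without ctrl + CCl4 replicate 3, the library at 1145 CPM, it was -0.059 (edgeR adjusted p = 0.999). Saa1 differed by 0.18 (interval -0.55 to 0.92) and Lcn2 by 0.27 (interval -0.29 to 0.84). For Hp the difference was 0.02 (interval -0.56 to 0.59) and for Hpx it was 0.25 (interval -0.31 to 0.81). These intervals leave room for differences of nearly 1 log2 unit in Saa1 and more than that in Saa3.

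Without injury, Yap/Taz KO and ctrl likewise gave no call among the 10 (0% of all genes by edgeR), and none had an unadjusted p under 0.05, against 9.46% of all tested genes. Yap1 did not pass in edgeR here either, at means of 15.6 CPM in Yap/Taz KO and 58.0 CPM in ctrl. DESeq2 and limma-voom called none of the 10 either, and 43 and 0 of all genes. The median was -0.28, beside -0.03 for all tested genes. Saa3 was the 1 gene whose groups did not overlap, which held for 10.7% of all tested genes. It averaged 21.7 ± 5.47 CPM in Yap/Taz KO and 42.9 ± 7.77 CPM in ctrl, a log2 fold change of -0.99 (95% interval -2.06 to 0.08, edgeR adjusted p = 0.528). Lcn2 differed by -0.51 (interval -1.13 to 0.11) and Orm2 by -0.72 (interval -1.91 to 0.48). The macrophage marker sum was 239 to 1151 CPM in Yap/Taz KO and 516 to 2795 CPM in ctrl, and its part in the Saa3 difference was not tested. Hp stood on the other side, at 2072 ± 509 CPM in Yap/Taz KO and 1589 ± 183 CPM in ctrl, a log2 fold change of 0.38 (interval -0.19 to 0.96).

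The difference between the injury responses, Yap/Taz KO minus ctrl, was tested as an interaction and passed for none of the 10 (0% of all genes by edgeR). One of the 10 had an unadjusted p under 0.05, against 8.11% of all tested genes. That gene was Lcn2, with a difference of 0.78 on the log2 scale (unadjusted p = 0.0480, edgeR adjusted p = 0.614), whose wider 95% interval of -0.05 to 1.62 includes 0. DESeq2 called 12 genes and limma-voom 0, none of them among the 10. Orm1, which passed in Yap/Taz KO and not in controls, had a difference of 0.47 (interval -0.55 to 1.49, edgeR adjusted p = 0.797), so its responses were not shown to differ. The median over the 10 was 0.44, beside 0.07 for all tested genes.

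How the genes varied within groups was described by the deviations of log2 CPM from the group means, over 12 libraries that share their depth and cell makeup across genes. Saa1 and Saa2 deviated together (r = 0.863), and Lcn2 with Orm2 (r = 0.759). Saa1 and Lcn2, which both rose strongly, deviated with r = 0.112, and Saa2 with Saa4 with r = -0.595. Over the levels themselves in the 12 libraries, the non-member genes most like Saa1 were Cks1b (Pearson r = 0.979), Cdc20 (0.975) and Pkm (0.975), and those most like Lcn2 were Cks1b (0.983), Ccnb2 (0.981) and Spc25 (0.981), among 5396 tested genes of at least 20 CPM on average. Cks1b, Cdc20, Ccnb2 and Spc25 are cell cycle genes. For Orm1 they were C8a (0.943), Arl1 (0.934) and Cyp4a31 (0.908), and for Hp they were Kif20b (0.952), Nsd2 (0.946) and Rad21 (0.945). These correlations follow mainly the split between injured and uninjured libraries and carry no test.

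Other positive acute phase genes moved in both directions. Of 25 listed genes 24 were tested. In Yap/Taz KO 5 rose and 3 fell (median 0.36), where 9.42% of all tested genes rose and 8.35% fell. In controls 3 rose and 4 fell (median -0.06), where 10.5% of all tested genes rose and 12% fell. With library totals 9 rose and 3 fell in Yap/Taz KO, where 1814 of all tested genes were higher and 406 lower. In controls 8 rose and 3 fell with that scaling, where 1974 of all tested genes were higher and 698 lower. Il1rn, the interleukin 1 receptor antagonist, averaged 36.2 CPM in Yap/Taz KO + CCl4 and 6.02 CPM in Yap/Taz KO (log2 fold change 2.59, edgeR adjusted p = 0.000376), and 100.5 CPM in ctrl + CCl4 and 10.5 CPM in ctrl (3.28, adjusted p = 2.85e-05). Fgl1, a fibrinogen-like protein secreted by hepatocytes, rose by 2.05 in Yap/Taz KO (edgeR adjusted p = 0.000360), and in controls its value was 0.76 (0.0797). Lrg1, a leucine-rich glycoprotein induced with the acute phase, rose by 1.89 in Yap/Taz KO and by 1.90 in controls (edgeR adjusted p = 0.000475 and 0.000337). Crp, which encodes C-reactive protein, averaged 207 CPM in Yap/Taz KO + CCl4 and 566 CPM in Yap/Taz KO, and 222 CPM in ctrl + CCl4 and 609 CPM in ctrl. It fell by 1.45 and by 1.46 in the 2 genotypes (edgeR adjusted p = 0.000211 and 0.000145). Agt, which encodes angiotensinogen, fell by 1.16 in Yap/Taz KO and by 1.32 in controls (edgeR adjusted p = 0.00114 and 0.000312).

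Negative acute phase genes fell more often than they rose. All 15 listed genes were tested. In Yap/Taz KO 7 fell and 1 rose (median -0.70), where 8.35% of all tested genes fell and 9.42% rose. In controls 12 fell and none rose (median -0.97), where 12% of all tested genes fell and 10.5% rose. With library totals 4 fell and 2 rose in Yap/Taz KO, where 406 of all tested genes were lower and 1814 higher. In controls 8 fell with that scaling, where 698 of all tested genes were lower and 1974 higher. The 12 hepatocyte markers share Alb, Ttr and Apoa1 with this list. Of those markers 7 fell in Yap/Taz KO (median -1.10) and 11 in controls (median -1.93), and none rose. Serpina6, the corticosteroid-binding globulin gene, averaged 30.9 CPM in Yap/Taz KO + CCl4 and 384 CPM in Yap/Taz KO (-3.63, edgeR adjusted p = 1.65e-06), and 14.3 CPM in ctrl + CCl4 and 375 CPM in ctrl (-4.71, 3.43e-07). Apoa2, an apolipoprotein of high-density lipoprotein, fell by 2.06 in Yap/Taz KO and by 2.70 in controls (edgeR adjusted p = 7.38e-05 and 8.34e-06). Serpina7, the thyroxine-binding globulin gene, was the 1 that rose, at 27.97 CPM in Yap/Taz KO + CCl4 and 4.16 CPM in Yap/Taz KO (2.77, edgeR adjusted p = 0.000878).

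**Figure D5:**
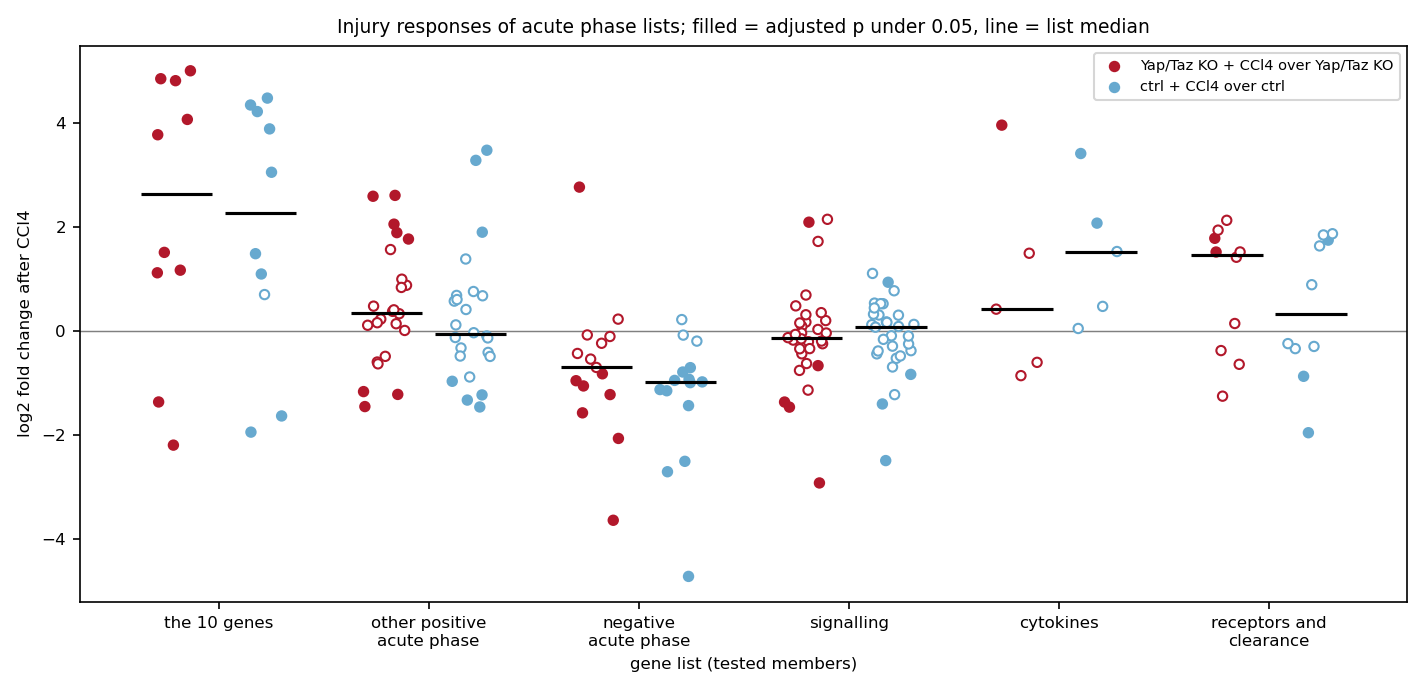
Log2 fold change after CCl4 of each tested gene of the 10 and of 5 related lists, in Yap/Taz KO (left of each pair) and in ctrl (right); filled points passed an adjusted p of 0.05 in edgeR and lines are medians. The medians of the 10 genes are 2.64 and 2.27, those of the other positive acute phase genes 0.36 and -0.06, and those of the negative acute phase genes -0.70 and -0.97.

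Calls among genes of the upstream signalling pathway were no more frequent at 48 h than among all tested genes. Of 31 tested, 1 rose and 4 fell in Yap/Taz KO (median -0.12), and 1 rose and 3 fell in controls (median 0.08), beside 17.8% and 22.5% of all tested genes called in either direction; without ctrl replicate 1 the counts in controls were 3 and 2. Cebpa, a C/EBP family factor of mature hepatocytes, averaged 143.5 CPM in Yap/Taz KO + CCl4 and 395 CPM in Yap/Taz KO, and 113 CPM in ctrl + CCl4 and 298 CPM in ctrl. It fell by 1.46 in Yap/Taz KO and by 1.40 in controls (edgeR adjusted p = 0.00106 and 0.00111). Il1rap, a subunit of the interleukin 1 receptor, fell by 1.36 in Yap/Taz KO and by 2.49 in controls (edgeR adjusted p = 0.0429 and 0.00132), and by 1.58 in controls without ctrl replicate 3. Il1r1, the ligand-binding chain of that receptor, rose by 0.94 in controls (edgeR adjusted p = 0.0134), with 0.0507 in a fit of the 6 samples compared. Nfkb2, an NF-kB subunit, rose by 2.09 in Yap/Taz KO (edgeR adjusted p = 0.0159), with 0.0525 without Yap/Taz KO replicate 1. That fold rests on few reads, with means of 8.20 CPM in Yap/Taz KO + CCl4 and 1.84 CPM in Yap/Taz KO. The means of Nfkb2 were 12.5 CPM in ctrl + CCl4 and 8.57 CPM in ctrl. Stat3, the main transducer of interleukin 6, averaged 214 CPM in Yap/Taz KO + CCl4, 255 CPM in ctrl + CCl4, 244 CPM in Yap/Taz KO and 303 CPM in ctrl, and its feedback inhibitor Socs3 averaged 76.4, 92.7, 59.8 and 86.8 CPM in the same order of groups. Neither passed in any comparison, and both were chosen after their values had been seen. In the knockout effects and in the difference between the injury responses no gene of these lists passed in edgeR.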

How the data were processed

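RNA was measured in 12 libraries of sorted hepatocytes, 3 in each of 4 groups named in the labels. The authors deposited raw counts of reads per gene symbol for QuantSeq 3' mRNA-Seq FWD libraries (Lexogen, per the labels' protocols); the values are whole numbers with unequal totals, and library totals of 1617761 to 3028951 limit the precision of genes near 0. The submitters' processing notes list the builds mm10 and GRCm38 beside STAR 2.6.1d, cutadapt and FastQC, with no role for any. Not given in the sources used here are the counter, the annotation, the strand setting and whether molecular identifiers were used. Libraries within a group all differed by more than sampling noise (9.27 to 29.5 times the chi-square expected from counting).

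From these counts, edgeR 4.0.16 (R 4.3.3) kept 10780 genes by filterByExpr (minimum count 10, minimum total 15), scaled libraries by TMM and fitted 1 coefficient per group over all 12 samples. Each contrast had a quasi-likelihood F test, adjusted by Benjamini-Hochberg over all tested genes. SE is the fold change over the root of F, and 95% intervals use 8 residual degrees of freedom and are not adjusted. The fit was tested on simulated data. Replicate numbers were not used as pairs. Correlations used log2 CPM with a prior count of 2. Positions come from GENCODE M21 (GRCm38) and promoters from RefSeq.

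Alternatives were library totals, RLE factors, testing without the low-count filter, DESeq2 1.42.0, limma-voom (limma 3.58.1), a replicate block, the 6 samples compared, leaving out each sample, and summing near-identical genes. The 10 genes and all lists were chosen with earlier results of these data known. Named from each pathway list were the 2 genes of smallest adjusted p in each direction of each comparison, and from marker lists the most abundant genes. One gene that this rule names is not reported here. Their alternatives were added after the data were seen.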

Additional observations from a re-analysis of the deposited data

How the results depend on the processing

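The number of the 10 genes that passed in each injury response moved by at most 2 over the scalings, tests and left-out libraries below, but not always with the same genes: with library totals Saa4 was lost in Yap/Taz KO, and in controls Orm3 was lost and Orm1 gained. In Yap/Taz KO 10 passed with RLE factors, no filter, DESeq2, limma-voom and the 6 samples compared, and 9 with library totals; leaving out 1 library gave 8 to 10. In controls 9 passed with RLE factors, library totals, DESeq2, limma-voom and the 6 samples, and 10 without the filter; leaving out 1 library gave 8 to 9. The calls that changed are given beside each gene in the text above. Genes called over the whole table ranged from 1176 to 2331 in Yap/Taz KO and from 1666 to 3173 in controls when 1 library was left out, against 1916 and 2427. With library totals the split of higher and lower calls was 1814 and 406 in Yap/Taz KO, against 1016 and 900 with TMM, and 1974 and 698 in controls, against 1137 and 1290.

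The knockout contrasts gave no call among the 10 under any alternative run. Over all genes, the knockout effect after CCl4 gave 109 calls with no filter, 17 with DESeq2, 5 with the 6 samples and 0 to 3 with 1 library left out. The knockout effect without injury gave 210, 43 and 0, and 0 to 1 with 1 library left out. The difference between the injury responses gave 115 with no filter and 12 with DESeq2, and 0 with 1 library left out. Why these counts moved was not tested.

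None of the reversals of sign was past the threshold in any comparison between genotypes. After CCl4, library totals gave -0.071 for Saa2, -0.065 for Orm1, -0.15 for Orm2 and -0.11 for Hp. Orm2, at 0.0038, became -0.0020 with RLE factors, -0.0023 with DESeq2 and -0.12 with limma-voom, and Orm3 became 0.015 and Hp -0.0092 with limma-voom. With 1 library left out, ranges after CCl4 were -0.15 to 0.66 for Saa1, -0.24 to 0.52 for Saa2, -0.023 to 0.43 for Lcn2, -0.13 to 0.24 for Orm1, -0.35 to 0.35 for Orm2, -0.45 to 0.54 for Orm3 and -0.16 to 0.23 for Hp. Without injury they were -0.55 to 0.064 for Saa2, -0.45 to 0.44 for Saa4, -0.66 to 0.13 for Orm1 and -0.35 to 0.10 for Hpx. For the difference between the injury responses they were -0.23 to 0.92 for Saa3, -0.051 to 0.84 for Saa4, -0.082 to 0.71 for Orm1 and -0.92 to 0.074 for Orm3. Summing the 3 orosomucoid genes, of which Orm1 holds most counts, replaced Orm3 by the sum's value: 1.15 in Yap/Taz KO, 0.74 in controls, 0.045 for the knockout effect after CCl4, -0.36 without injury and 0.40 for the difference.

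Replicate numbers are shared between groups in the labels, with no statement that they mark a shared animal, litter or day. Same-numbered libraries deviated from their group means with correlations of -0.152 to 0.323, over 0.1 in 7 of 18 pairs. Libraries with different numbers gave -0.354 to 0.273, over 0.1 in 7 of 36 pairs. Libraries correlated best with their own number in 15 of 36 comparisons with another group. Between Yap/Taz KO and ctrl, replicates 1 and 2 gave 0.323 and 0.244, and replicate 3 gave -0.0264. These values do not settle whether the numbers mark pairs, and they were not used as such because no pairing is stated. With the replicate number as a block, 10 and 9 of the 10 genes passed in the injury responses, and 2095 and 2594 of all genes; no knockout call was gained, and Orm2 after CCl4 became -0.018.

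Depth limits the low genes most: Orm2 had 10 to 27 counts in uninjured libraries and Orm3 21 to 54 in injured ones, so their folds rest on few reads. Whether other cells, the vector or the injection contributed cannot be told apart from the groups in these bulk samples.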

Other observations

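Of 11 listed cytokines that drive the acute phase 5 were tested, and 1 passed in Yap/Taz KO and 2 in controls, all higher, where 9.42% and 10.5% of all tested genes were higher. Without ctrl + CCl4 replicate 3, none passed in either genotype. Il6, the main inducer of the response, had 11 counts in 4 of the 12 libraries and was not tested. Il1b, which encodes interleukin 1 beta and was the most counted of the list, averaged 17.2 CPM in Yap/Taz KO + CCl4 and 31.1 CPM in Yap/Taz KO, and 31.7 CPM in ctrl + CCl4 and 30.05 CPM in ctrl (edgeR adjusted p = 0.286 and 0.959), and was chosen after its values had been seen. Osm, which encodes oncostatin M, a cytokine of the interleukin 6 family, averaged 3.16 CPM in Yap/Taz KO + CCl4 and 0.142 CPM in Yap/Taz KO, and 4.03 CPM in ctrl + CCl4 and 0.305 CPM in ctrl. It passed in both (edgeR adjusted p = 0.0460 and 0.0457), and no fold is given because the uninjured groups held so few reads. With 1 library left out, Osm passed in 4 of 12 fits in Yap/Taz KO and in 2 of 12 in controls. The edgeR adjusted p reached 0.195 and 0.179 in these fits. With limma-voom the adjusted p was 0.106 in Yap/Taz KO and 0.144 in controls, and with the replicate block in edgeR it was 0.0654 in controls. Tgfb1 averaged 12.5 CPM in ctrl + CCl4 and 2.96 CPM in ctrl (2.07, edgeR adjusted p = 0.0330), with adjusted p up to 0.0889 when 1 library was left out.

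Of 12 listed receptors and enzymes that handle what Hp, Hpx and serum amyloid A carry 10 were tested, and 2 rose in Yap/Taz KO (median 1.47), while 1 rose and 2 fell in controls (median 0.33), beside 17.8% and 22.5% of all tested genes called in either direction. With library totals 4 rose in Yap/Taz KO and 3 in controls with none lower. Over all tested genes 1814 were then higher and 406 lower in Yap/Taz KO, and 1974 and 698 in controls. Without ctrl replicate 1 the counts of the list in controls were 5 higher and 1 lower. Without ctrl replicate 3 the counts were 4 higher and 1 lower in Yap/Taz KO and 1 higher and 1 lower in controls, and without ctrl + CCl4 replicate 3 they were 2 higher and 1 higher, with none lower. Cd36, a scavenger receptor, averaged 93.4 CPM in Yap/Taz KO + CCl4 and 32.5 CPM in Yap/Taz KO, and 154 CPM in ctrl + CCl4 and 45.5 CPM in ctrl. It rose by 1.52 in Yap/Taz KO and by 1.75 in controls (edgeR adjusted p = 0.00529 and 0.00151). Blvra, which encodes biliverdin reductase of heme breakdown, rose by 1.78 in Yap/Taz KO (edgeR adjusted p = 0.00281). Scarb1, the high-density lipoprotein receptor, fell by 0.87 in controls (edgeR adjusted p = 0.0229), and the value was -0.48 with library totals (0.156) and -0.50 without ctrl replicate 3 (0.140). Cd163, the haptoglobin-hemoglobin receptor of macrophages, fell by 1.95 in controls (edgeR adjusted p = 0.0354). The fall was 0.63 without ctrl replicate 1 (0.394), the library with the highest macrophage marker sum of the uninjured ones. With 1 library left out the call held in 7 of 12 fits. It was also lost with library totals (edgeR adjusted p = 0.0882), in the 6 samples compared (0.0662) and with limma-voom (adjusted p = 0.0975).

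Markers listed for other cell types were counted at these levels. Stellate cell and fibroblast markers summed to 1632 to 1837 CPM in Yap/Taz KO + CCl4, 1065 to 2057 CPM in ctrl + CCl4, 254 to 781 CPM in Yap/Taz KO and 290 to 1264 CPM in ctrl. Endothelial markers summed to 559 to 767, 540.3 to 666, 276 to 735 and 353 to 1395 CPM in the same order of groups, and cholangiocyte markers to 92.6 to 219, 381 to 459, 39.0 to 70.7 and 41.2 to 69.5 CPM. Most of the cholangiocyte sum was Spp1 and Sox9, which averaged 351 and 54.5 CPM in ctrl + CCl4. Krt19, Krt7, Epcam and Cldn7 averaged 1.16, 1.02, 1.80 and 0.575 CPM there, and these genes were named after their values had been seen. Which cells the Spp1 and Sox9 counts came from was not tested. Lymphocyte markers stayed under 30 CPM in every library.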
